A study of Mus musculus with 18 samples.

Results

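The Ifi200 genes are a family of interferon-inducible genes on mouse chromosome 1, and 7 of them, Ifi203, Ifi204, Ifi206, Ifi207, Ifi208, Ifi209 and Ifi213, were followed here among 53509 genes measured. The 7 members were chosen by their measured adenosine effects, higher with adenosine alone and lower with adenosine beside an A2aR inhibitor (A2aR being the adenosine A2a receptor), so those values are described here without a test. RNA was sequenced from 18 libraries of double negative T cells (DNT cells), T cells without CD4 and CD8. All were wild type, from mouse spleen and lymph node, had been converted from CD4+ T cells in culture, and received anti-CD3/CD28 antibody. They formed 6 groups of 3 libraries in 3 separately tabulated sets. WTATPgs cells had 400 µM of the ATP analogue ATPgs for 6 h and were set against WT cells, which had no ligand. ADO cells had 400 µM adenosine for 6 h and were set against DNT cells without it. RA cells had 250 nM A2aR inhibitor together with 400 µM adenosine for 6 h and were set against R cells, which had the inhibitor alone. Neither the inhibitor's name nor the animals' age is given in the sources used here. No source says whether a group's 3 libraries were separate animals or cultures, and p-values therefore reflect the spread among libraries alone, which may be technical.

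Proteins of the Ifi200 family pair, in most cases, a pyrin domain, through which they bind other pyrin domain proteins, with a HIN domain that binds double-stranded DNA. The family is best known for sensing DNA in the cytosol and nucleus. AIM2 builds an inflammasome on DNA, mouse p204, the product of Ifi204, is set beside human IFI16 as a sensor that signals through STING, and mouse p202, from Ifi202b, lacks the pyrin domain and restrains AIM2. Most members are induced by interferon, whose receptors act through STAT and IRF factors that bind response elements in promoters. The A2a receptor acts by another route, raising cyclic AMP in T cells.

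The 7 members lie on chromosome 1 between positions 173468485 and 173942672 of GRCm38, a stretch of 474 kb that also holds Ifi214, Mndal and Ifi211, and Aim2, Ifi202b and Ifi205 flank it. From the lower coordinate, the members are Ifi206 (ENSMUSG00000037849, chr1:173468485-173491041, minus strand), Ifi213 (ENSMUSG00000073491, chr1:173566283-173599274, minus), Ifi209 (ENSMUSG00000043263, chr1:173630917-173647928, plus), Ifi208 (ENSMUSG00000066677, chr1:173673675-173698395, plus), Ifi207 (ENSMUSG00000073490, chr1:173723427-173741747, minus), Ifi204 (ENSMUSG00000073489, chr1:173747293-173766943, minus) and Ifi203 (ENSMUSG00000039997, chr1:173920407-173942672, minus). All 7 are annotated as protein-coding genes in GENCODE M21.

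RefSeq promoter windows of GRCm38.p6, from 250 bases before to 50 after the start, were matched for 6 of the 7 members (all but Ifi204). They are shown because 5 of the 6 hold the same 10 bases, a match to the core of the interferon-stimulated response element. Ifi203 has 2 RefSeq windows and the match lies only in the one of its inner start, so that its 60 bases stand inside the GENCODE model of Ifi203, just beyond the upper end of the Mndal model at position 173942491. In each line below the 60 bases run 5′ to 3′ on the gene's strand and the capitals mark the core, or for Ifi209 the nearest 10 bases to it.
Ifi206, chr1:173491324-173491383, minus: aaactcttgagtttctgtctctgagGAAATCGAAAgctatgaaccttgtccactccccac
Ifi213, chr1:173599311-173599370, minus: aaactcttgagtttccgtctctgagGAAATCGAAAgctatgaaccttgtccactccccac
Ifi208, chr1:173673582-173673641, plus: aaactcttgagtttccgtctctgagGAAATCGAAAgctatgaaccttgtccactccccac
Ifi207, chr1:173741816-173741875, minus: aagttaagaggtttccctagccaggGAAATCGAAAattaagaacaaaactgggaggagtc
Ifi203, chr1:173942493-173942552, minus: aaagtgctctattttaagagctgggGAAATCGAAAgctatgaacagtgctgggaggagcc
Ifi209, chr1:173630755-173630814, plus: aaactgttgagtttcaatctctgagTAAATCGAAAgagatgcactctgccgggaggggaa
Mndal, chr1:173880189-173880248, minus: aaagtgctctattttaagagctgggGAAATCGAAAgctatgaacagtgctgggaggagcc
Ifi214, chr1:173536002-173536061, minus: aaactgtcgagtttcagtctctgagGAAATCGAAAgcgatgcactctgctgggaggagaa

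The core was searched on both strands as GAAA, any 2 bases and GAAA again. It was held by 3.44% of 32851 promoter windows of this length and by windows of 3.99% of 27025 genes. The first base of the core lay 40 bases before the RefSeq start in Ifi206, 73 in Ifi213, 58 in Ifi208, 41 in Ifi207 and 35 in Ifi203. The exact 10 bases GAAATCGAAA occurred in the windows of 16 of 27025 genes (0.0592%), and 7 of those 16 are family genes, namely these 5 members with Ifi214 and Mndal. The core as searched was held by 4 of the 6 other family genes, namely Ifi214, Mndal, Ifi211 and Ifi205. Ifi211 and Ifi205 had it as GAAATTGAAA, so the core is not particular to the members. Ifi209 carried no match, and its nearest 10 bases differed from the core at 1 base, G1T, counted from the core's first base. The 60 bases were identical in Ifi213 and Ifi208, differed from those at 1 base in Ifi206, and were identical in Ifi203 and Mndal, whereas Ifi207 and Ifi206 differed at 32 of 60 bases. A gamma activated site, searched on both strands as TTCNNNGAA, was found in windows of 0 of the 6 members and of 9.55% of genes (8.3% of all windows). A cyclic AMP response element, searched on both strands as TGACGTCA, was found in windows of 0 of the 6 and of 2.03% of genes (1.79% of all windows). These are matches of letters within the windows and were not tested for binding or for any effect.

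Copies this alike limit how reads can be assigned. Of all stretches of 100 bases in the members' annotated exons, 16.9% in Ifi209 also occurred in another gene, mostly Ifi214, 13.1% in Ifi206, mostly Ifi208, and 10.7% in Ifi204, mostly Ifi211. The share was 5.92% in Ifi208, 3.3% in Ifi213, 2.84% in Ifi203 and 0.79% in Ifi207. Of stretches of 50 bases the share was larger, 33.7% in Ifi209, 25.6% in Ifi206, 20.9% in Ifi208, 20% in Ifi204, 15.6% in Ifi213, 12.4% in Ifi203 and 7.29% in Ifi207, and the read length is not given in the sources used here. Ifi203 also overlaps the Mndal model on the same strand, with 37 exonic bases in common. How the authors counted reads that fit several genes is not given in the sources used here, so part of each member's count may belong to a relative. Ifi207 shared the least sequence, but how much of its low count came from relatives was not tested.

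Each library held between 20156082 and 24331577 counts. T cell identity was checked with Cd3e, which ran from 54.4 to 175 CPM (counts scaled to 1000000 per library) over all libraries, against 0.328 to 10.9 CPM for Cd4 and 3.3 to 24.7 CPM for Cd8a. Biological variation between replicates, as edgeR's common coefficient, was 10.6% in the ATPgs set, 2.74% in the adenosine set and 19.6% in the inhibitor set, where the R libraries stood apart from each other. The inhibitor set also had more ribosomal protein RNA, 12% to 12.8% of counts in RA and 10.6% to 16.3% in R, against 5.44% to 5.51% in ADO and 5.38% to 5.47% in DNT. In the ATPgs set, WTATPgs replicate 3 differed from replicates 1 and 2, with chi-square values per degree of freedom of 25.3 and 25.4, where replicates 1 and 2 had 1.65 between them.

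The members differed widely in level. Per kilobase of the longest protein-coding transcript, Ifi209 was highest in ADO (33.1 CPM per kb), DNT (17 CPM per kb), RA (6.27 CPM per kb) and R (13.7 CPM per kb), and Ifi203 was highest in WTATPgs (13.1 CPM per kb) and WT (12 CPM per kb). Ifi207 was lowest in every group, between 0.0358 CPM per kb in RA and 0.49 CPM per kb in ADO. In ADO, where the spread was least relative to the mean, the order per kilobase from the top was Ifi209, Ifi206, Ifi203, Ifi213, Ifi208, Ifi204 and Ifi207, and no neighbours in it overlapped between libraries. In DNT the order was Ifi209, Ifi206, Ifi203, Ifi208, Ifi213, Ifi204 and Ifi207, where Ifi209 overlapped with Ifi206 and Ifi208 with Ifi213. In RA and R it was Ifi209, Ifi203, Ifi206, Ifi204, Ifi208, Ifi213 and Ifi207, with Ifi204 and Ifi208 overlapping in both groups and Ifi206 and Ifi204 in R. In WTATPgs only the lowest pair, Ifi208 and Ifi207, did not overlap, and in WT only Ifi204 and Ifi213, the fourth and the fifth from the top, overlapped. With the length of all annotated exons instead, Ifi209 came above Ifi203 in WTATPgs and WT, Ifi206 came above Ifi203 in RA and R, and Ifi204 came above Ifi213 in WTATPgs and DNT.

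Summed over the 7 members, the level was 354, 348 and 355 CPM in ADO, against 212, 202 and 220 CPM in DNT. It was 35.5, 36.8 and 38.5 CPM in RA, against 113, 92.3 and 104 CPM in R. In the ATPgs set it was 75, 78 and 177 CPM in WTATPgs, against 102, 107 and 107 CPM in WT. The summed level without ligand was thus higher in DNT than in WT or R, but these are separate tables, each scaled on its own, and no test was made across them.

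**Figure D1:**
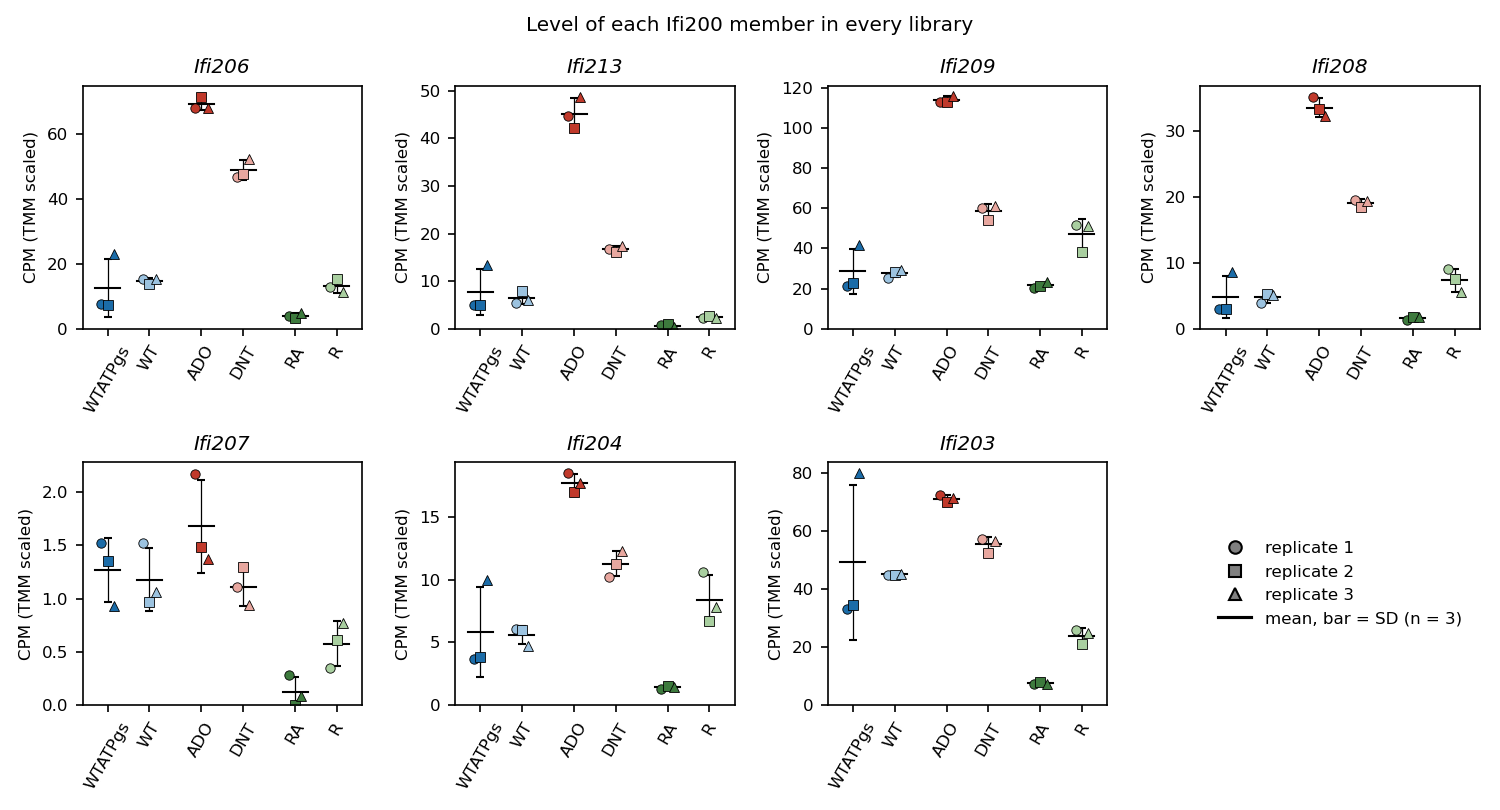
Level of each member in every library, in TMM-scaled CPM on linear axes that start at 0, each panel with its own scale; markers are the 3 replicates, lines the mean and bars the SD. Every ADO library lies above every DNT library and every RA library below every R library in all 7 panels, and WTATPgs replicate 3 stands above replicates 1 and 2 in 6 of them.

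With adenosine and no inhibitor all 7 members were higher in ADO than in DNT in every library, by log2 fold changes between 0.36 and 1.43. The groups did not overlap for any member, a pattern that 28.2% of the 14512 genes tested showed in this direction. By edgeR 50.2% of genes were called in either direction. The pattern is part of what chose the members and nothing is read from it. Ifi213 was highest in relative terms, with 44.8, 42.1 and 48.6 CPM in ADO and 16.7, 16.2 and 17.4 CPM in DNT, a 2.7-fold difference (log2 fold change 1.43, SE 0.06). Ifi209, the most abundant member here, had 113, 113 and 116 CPM in ADO and 59.9, 54.3 and 61.3 CPM in DNT (0.96, SE 0.04). Ifi209 thus had the higher level and Ifi213 the larger fold.

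Ifi208 had 35.2, 33.4 and 32.3 CPM in ADO and 19.5, 18.5 and 19.4 CPM in DNT (log2 fold change 0.81, SE 0.06). Ifi204, the p204 gene, had 18.5, 17 and 17.7 CPM in ADO and 10.2, 11.3 and 12.3 CPM in DNT (0.65, SE 0.08). They stood 1.76-fold and 1.57-fold above DNT, at levels well below Ifi209. Ifi206 had 68.2, 71.5 and 68.2 CPM in ADO and 46.9, 47.6 and 52.5 CPM in DNT (0.5, SE 0.04). Ifi203 had 72.4, 70 and 71.5 CPM in ADO and 57.5, 52.4 and 56.5 CPM in DNT (0.36, SE 0.04), the smallest difference of the 7. Ifi207, which in mouse acts on STING, was close to its detection limit, with 49, 34 and 31 counts in ADO and 26, 28 and 21 counts in DNT (0.59, SE 0.26), and its groups were separated by only a few counts. The members' median log2 fold change was 0.65, against 0.00 over all genes tested, and it stayed between 0.59 and 0.72 when each library was left out in turn.

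With the inhibitor present all 7 members were lower in RA than in R, again with no overlap between libraries. This pattern was shown by 10.7% of the 12873 genes tested, against 10.1% for the opposite one, and by edgeR 1.14% were called in either direction. It is likewise part of the choice. Ifi204 was furthest down, with 1.26, 1.53 and 1.46 CPM in RA and 10.6, 6.73 and 7.86 CPM in R, which is 5.88-fold lower in RA (log2 fold change -2.56, SE 0.24). Ifi208 had 1.31, 1.79 and 1.77 CPM in RA and 9.03, 7.51 and 5.55 CPM in R (-2.18, SE 0.25). For both genes the R libraries were spread more widely than the RA libraries.

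Ifi213 had few reads here, 15, 22 and 7 counts in RA and 44, 65 and 37 counts in R (log2 fold change -1.84, SE 0.37). Ifi206 had 3.98, 3.41 and 4.74 CPM in RA and 12.8, 15.4 and 11.2 CPM in R (-1.7, SE 0.21). Ifi203 had 7.45, 7.95 and 7.19 CPM in RA and 26, 21.2 and 24.9 CPM in R (-1.67, SE 0.17). These 3 genes were between 3.19-fold and 3.58-fold lower in RA. Ifi209 had 20.5, 21.2 and 23 CPM in RA and 51.9, 38.3 and 51.1 CPM in R (-1.13, SE 0.17), the smallest of the 6 fitted differences. Ifi207 did not pass the filter on low counts and has no fold change here, with 6, 0 and 2 counts in RA and 7, 15 and 13 counts in R. The median of the 6 fitted members was -1.77, against -0.04 over all genes tested, and it stayed between -1.91 and -1.73 when each library was left out.

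The members' order of response was not the same in both settings. Ifi213 was first without the inhibitor and the third of 6 with it, at -1.84, close to Ifi206 (-1.7) and Ifi203 (-1.67) and below neither without RA replicate 3, where it was at -1.5, Ifi206 at -1.85 and Ifi203 at -1.65. Ifi204 was the fourth of 7 without and first with it. Ifi209 was second without the inhibitor and last with it. Of 12484 genes tested in both tables, 23.1% had a positive log2 fold change in ADO and a negative one in RA, without regard to a test. All 6 fitted members kept their sign in both comparisons under every scaling, filter and test tried and with each library left out. As these signs chose the members, that is a description and no support for them. In RA, the ribosomal protein share of counts lay within the range of R, and the part of the share's spread in R in these values was not tested. Bulk libraries cannot tell fewer cells expressing a gene from less RNA per cell.

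**Figure D2:**
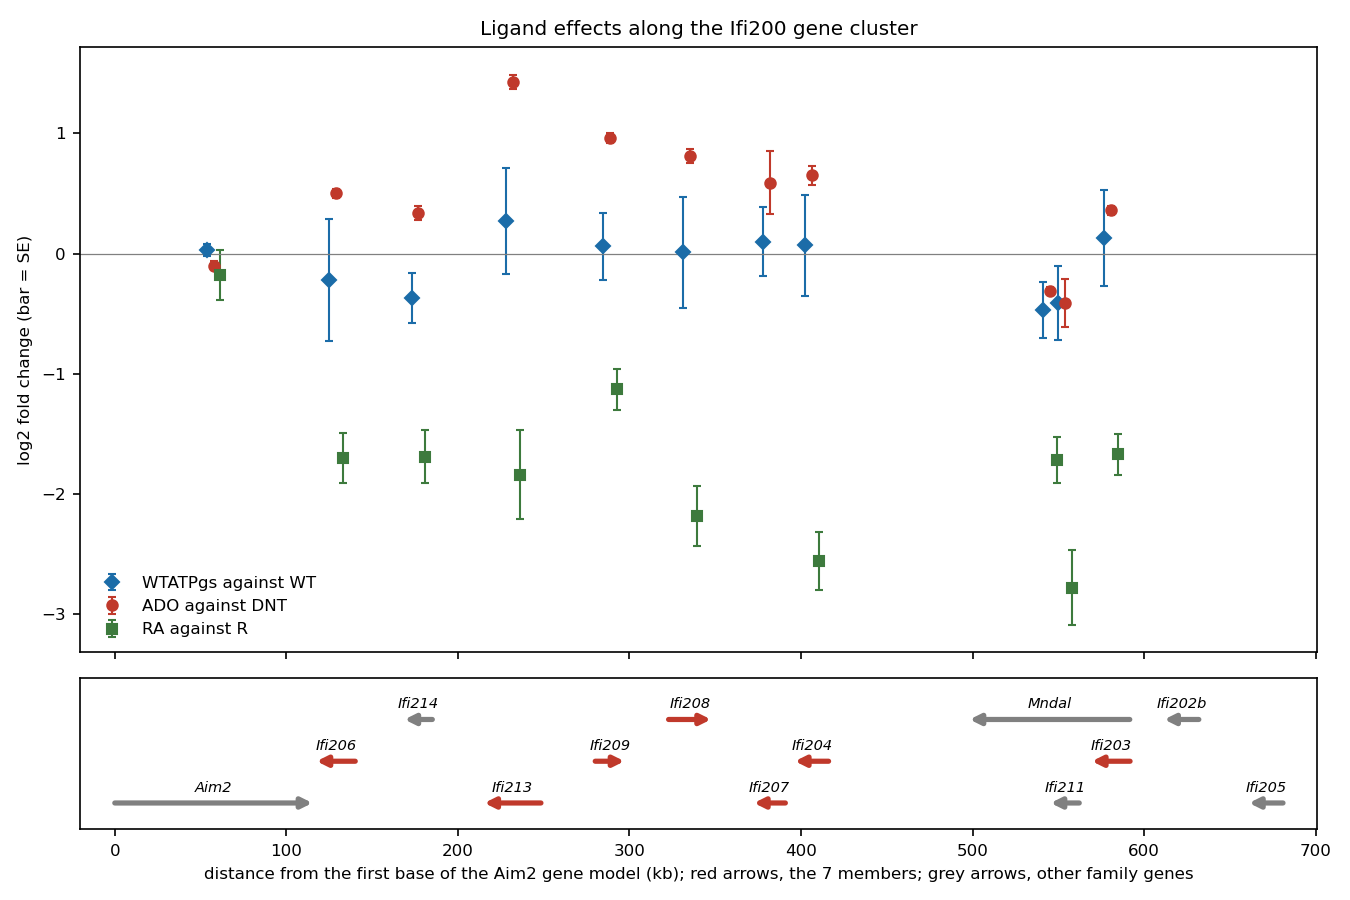
Log2 fold changes with their SE for each comparison, placed at the middle of each gene along the cluster, with distance from the first base of the Aim2 model in kb; the arrows below show the gene models and strands, members in red. Members lie above 0 in ADO against DNT and below 0 in RA against R, while Aim2 lies near 0 in all 3 comparisons and Mndal and Ifi211 lie below 0 in each.

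ATPgs played no part in choosing the members, so this comparison was tested. None of the 7 members differed between WTATPgs and WT at an adjusted p under 0.05 in edgeR's quasi-likelihood test with Benjamini-Hochberg adjustment over all genes, where 37.1% of 15124 genes did. The count was also 0 at an unadjusted p under 0.05, 0 with DESeq2 and 0 with limma-voom. Of all 15124 genes, 6991, 4901 and 5421 passed in that order. Log2 fold changes ran from -0.22 (SE 0.51) for Ifi206 to 0.27 (SE 0.44) for Ifi213, with edgeR adjusted p between 0.682 and 0.988, and their median was 0.07.

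The WTATPgs libraries disagreed with each other. Ifi203 had 33.1, 34.7 and 80.1 CPM in WTATPgs and 44.8, 45 and 45.4 CPM in WT. Ifi206 had 7.54, 7.38 and 22.9 CPM in WTATPgs and 15.3, 13.7 and 15.2 CPM in WT. Ifi209 had 21.3, 22.8 and 41.5 CPM in WTATPgs and 25.4, 28.1 and 29 CPM in WT. In all of these, replicates 1 and 2 lay below every WT library and replicate 3 above every WT library. Ifi213 had 4.94, 5.02 and 13.3 CPM in WTATPgs and 5.49, 7.83 and 6.02 CPM in WT. Ifi208 had 2.95, 2.92 and 8.54 CPM in WTATPgs and 3.83, 5.34 and 5.18 CPM in WT. Ifi204 had 3.68, 3.88 and 9.97 CPM in WTATPgs and 6.04, 6.03 and 4.73 CPM in WT. The same split, 2 libraries below and 1 above all WT libraries, thus appeared in 6 of the 7 members, where 2.82% of the genes tested showed it. Ifi207 had 1.52, 1.35 and 0.936 CPM in WTATPgs and 1.52, 0.967 and 1.06 CPM in WT, and it alone had replicate 3 lowest.

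**Figure D3:**
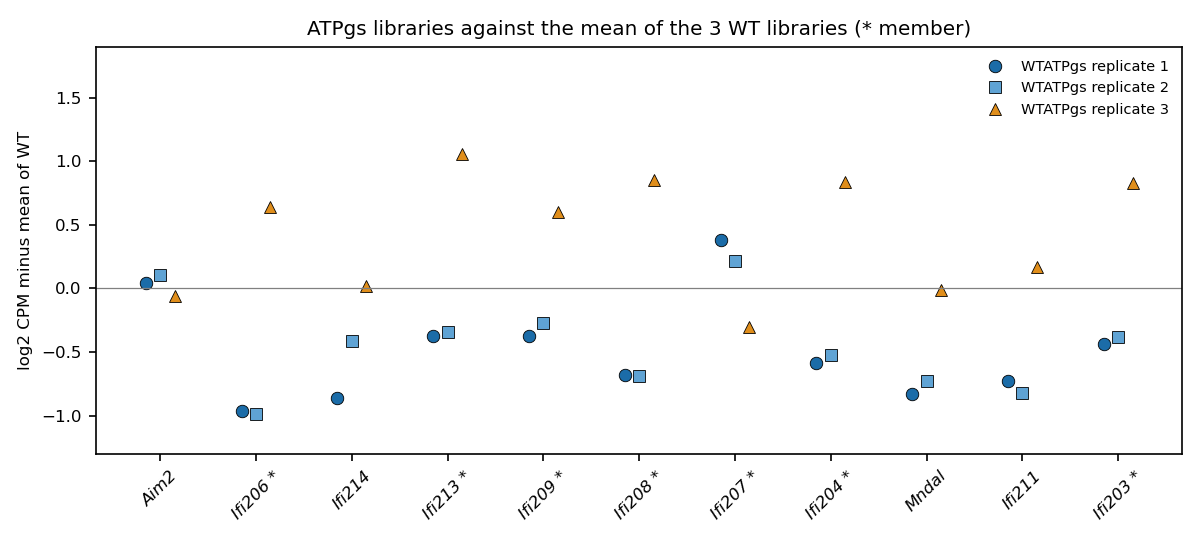
Log2 CPM of each WTATPgs library minus the mean of the 3 WT libraries, for the 7 members (starred) and 4 other family genes; circles, squares and triangles are WTATPgs replicates 1, 2 and 3. Replicate 3 lies between 0.60 and 1.06 for Ifi206, Ifi213, Ifi209, Ifi208, Ifi204 and Ifi203, where replicates 1 and 2 lie between -0.99 and -0.27.

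WTATPgs replicate 3 therefore decided the call. Without it 6 of the 7 members fell, where 26.9% of 15568 genes were called lower and 53.8% were called in either direction. Ifi206 then had a log2 fold change of -0.99 (SE 0.1, edgeR adjusted p = 5.18e-12), Ifi208 -0.71 (SE 0.17, adjusted p = 0.000483) and Ifi204 -0.57 (SE 0.15, adjusted p = 0.0015). Ifi203 had -0.42 (SE 0.05, edgeR adjusted p = 2.19e-09), Ifi213 -0.38 (SE 0.14, adjusted p = 0.0244) and Ifi209 -0.33 (SE 0.07, adjusted p = 9.52e-05). Ifi207, at 0.1 with all libraries, was then at 0.27 (SE 0.29, edgeR adjusted p = 0.45). Without replicate 1 or without replicate 2, 0 of the 7 passed, beside 27.9% and 27.8% of all genes. Over the 13 alternatives the adjusted p of Ifi206 ran from 5.18e-12 to 0.948 and that of Ifi203 from 2.19e-09 to 0.983.

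Other transcripts also differed between these libraries. The median of 15 tested myeloid markers, relative to WT, was 1.72 and 1.78 on the log2 scale in WTATPgs replicates 1 and 2 and 0.12 in replicate 3, and that of 11 B cell markers was 0.9, 1.09 and -1.97. Of the 15 tested myeloid markers 7 rose and 0 fell, beside 17.7% of all genes called higher and 19.4% lower. Without WTATPgs replicate 3, 14 rose, beside 26.9% of all genes. Summed, the 18 myeloid markers came to between 469 and 569 CPM in WTATPgs and between 333 and 345 CPM in WT, with none at 0. Ccr2 and Ly6c2 made up most of that sum and moved apart, with 223 to 341 CPM in WTATPgs and 163 to 167 CPM in WT for Ccr2, and 71.1 to 120 CPM in WTATPgs and 121 to 125 CPM in WT for Ly6c2. The 11 B cell markers summed to between 31.5 and 98.9 CPM in WTATPgs and between 54 and 59.2 CPM in WT. Cd14, a monocyte receptor, ran from 5 to 26.3 CPM in WTATPgs and from 0.831 to 1.19 CPM in WT. The part of these transcripts in the members' values was not tested.

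The 6 other annotated family genes split into several patterns. Aim2, the inflammasome sensor, was abundant and barely moved, with 49.9, 52.7 and 51.4 CPM in ADO and 55.2, 52.6 and 57.3 CPM in DNT, and with 43.8, 42.8 and 42.6 CPM in RA and 46.8, 35.3 and 64.7 CPM in R, overlapping in both. Ifi214 followed the members, at 28.5 ± 1.37 CPM in ADO and 22.5 ± 0.995 CPM in DNT, and at 4.95 ± 0.64 CPM in RA and 16 ± 3.91 CPM in R (SD, n = 3 each), with no overlap either way. Mndal, named for its likeness to human MNDA, had 96.1, 89.8 and 97.7 CPM in ADO and 116, 120 and 116 CPM in DNT, so it was lower with adenosine alone (log2 fold change -0.31, SE 0.03). It was lower with the inhibitor too, at 20.8, 19.8 and 23.9 CPM in RA and 74.4, 55.5 and 82.1 CPM in R (-1.72, SE 0.19). Ifi211 had 41, 45 and 43 counts in ADO and 50, 59 and 61 counts in DNT, and 7, 16 and 17 counts in RA and 83, 89 and 76 counts in R. Ifi211 shares 56.9% of its 100-base stretches with other genes, mostly Ifi205, so its values are the least certain. Ifi205 and Ifi202b were near the floor of detection, with at most 12 and 6 counts in any library. Since leaving these genes out of the members used the same contrasts, no test is given for them there.

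Ifi203 and Mndal, whose 60 bases around the core are identical, had opposite signs in ADO against DNT, Ifi203 higher and Mndal lower. With the inhibitor both were lower in RA, by log2 fold changes of -1.67 for Ifi203 and -1.72 for Mndal. With ATPgs, where they could be tested, 0 of the 4 other family genes that passed the filter differed in edgeR's test, where 37.1% of all genes did. At an unadjusted p under 0.05, with DESeq2 and with limma-voom there were also 0. Of all 15124 genes, 6991, 4901 and 5421 passed in that order. Without WTATPgs replicate 3, Mndal fell by 0.78 on the log2 scale (edgeR adjusted p = 1.67e-21), Ifi211 by 0.81 (adjusted p = 0.00652) and Ifi214 by 0.63 (adjusted p = 4.71e-05), while Aim2 was at 0.07 (adjusted p = 0.15). Beyond the family, 24 protein-coding genes lie within 500 kb of the cluster, 18 of them olfactory receptor genes. In the order ATPgs, adenosine and adenosine with inhibitor, 4, 1 and 1 of them had enough reads to test, and 0 passed in edgeR, DESeq2 or limma-voom, with 0, 1 and 0 at an unadjusted p under 0.05. In the same order, edgeR called 37.1%, 50.2% and 1.14% of all genes.

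Genes that act with the Ifi200 proteins were compared next. In ADO, 12 of 26 tested genes of cytosolic DNA sensing rose and 3 fell, with a median log2 fold change of 0.09, beside 25.5% of all genes called higher and 24.6% lower. Samhd1, which breaks down nucleotides for DNA synthesis, averaged 198 CPM in ADO and 103 CPM in DNT (log2 fold change 0.95, edgeR adjusted p = 9.86e-30). Zbp1, a sensor of Z-form nucleic acid, averaged 212 CPM in ADO and 112 CPM in DNT (0.91, edgeR adjusted p = 5.15e-32), and Irf7, a transcription factor of the type I interferon response, 112 CPM in ADO and 60.3 CPM in DNT (0.89, adjusted p = 3.45e-26). In RA, 0 of 26 rose and 1 fell, beside 0.287% of all genes called higher and 0.855% lower. The one that fell was Irf7, at 4.63 CPM in RA and 17.6 CPM in R (-1.93, edgeR adjusted p = 0.00132). Zbp1 averaged 37.9 CPM in RA and 56.6 CPM in R (edgeR adjusted p = 0.142) and did not pass, though it did with DESeq2 (0.032) and without R replicate 2 (0.0495) or R replicate 3 (0.0151). Over the alternatives its adjusted p ran from 0.0151 to 0.576. The list's members in WTATPgs went 4 up and 7 down of 26, where 17.7% of all genes were called higher and 19.4% lower. The 4 became 1 without WT replicate 1 or 2 and 2 without WT replicate 3. The 7 became 13 without WTATPgs replicate 3, where 26.9% of all genes were called lower. In RA, the 1 that fell became 4 without R replicate 3, where 994 of 13181 genes were called lower. In WTATPgs, Xrcc5 and Xrcc6, the subunits of Ku, fell by 0.61 and 0.4 on the log2 scale (edgeR adjusted p = 0.000182 and 0.00293), as did Adar by 0.39 (adjusted p = 0.000259).

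Of the inflammasome genes, 7 of 13 tested rose in ADO and 2 fell, beside 25.5% of all genes called higher and 24.6% lower. Il1a, an alarm cytokine, averaged 7.76 CPM in ADO and 30.4 CPM in DNT (log2 fold change -1.97, edgeR adjusted p = 3.69e-27), while the sensors Naip5 and Nlrp1a rose by 0.57 and 0.84 (adjusted p = 2.32e-05 and 2.57e-05). In RA 0 of 11 changed with edgeR, DESeq2 or limma-voom, where 147, 533 and 147 of 12873 genes did. At an unadjusted p under 0.05 there were 3, beside 1595 of all genes. In WTATPgs 2 of 14 rose and 2 fell, beside 17.7% of all genes called higher and 19.4% lower. Without WTATPgs replicate 3 these counts were 5 and 5, beside 26.9% higher and 26.9% lower. In contrast 0 rose without WT replicate 1 or 3 or WTATPgs replicate 1 or 2. Gsdmd, the pore protein, fell by 0.36 (edgeR adjusted p = 0.00163) and Casp4, the caspase that cleaves it on sensing lipopolysaccharide, by 0.27 (adjusted p = 0.00414). Mefv, which encodes pyrin, rose by 1.22 (edgeR adjusted p = 0.0391), a call that was lost with limma-voom (0.0724) and without WT replicate 1 or 3 or WTATPgs replicate 1 or 2.

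Interferon signalling genes rose more often than they fell with either ligand. In ADO 13 of 19 rose and 4 fell, and in WTATPgs 9 of 19 rose and 4 fell. Of all genes, 25.5% were called higher and 24.6% lower in ADO, and 17.7% higher and 19.4% lower in WTATPgs. Without WTATPgs replicate 3, 9 rose and 6 fell, beside 26.9% of all genes called higher and 26.9% lower. The list's median log2 fold change was then 0.08, against 0.22 with all libraries. Ifngr1, a chain of the interferon gamma receptor, averaged 371 CPM in ADO and 129 CPM in DNT (log2 fold change 1.52, edgeR adjusted p = 4.99e-43), and 404 CPM in WTATPgs and 100 CPM in WT (2.01, adjusted p = 3.5e-07). Jak2, the kinase bound to that receptor, averaged 226 CPM in ADO and 387 CPM in DNT, and 245 CPM in WTATPgs and 488 CPM in WT. Ifng itself averaged 601 CPM in ADO and 1510 CPM in DNT (-1.32, edgeR adjusted p = 6.97e-26). In RA 1 of 19 rose and 1 fell, beside 0.287% of all genes called higher and 0.855% lower. With DESeq2 5 fell, where 352 of 12873 genes were called lower. Without R replicate 3, 7 fell, where 994 of 13181 genes were called lower. Usp18, the protease that removes ISG15 and restrains the type I interferon receptor, averaged 11.3 CPM in RA and 34.8 CPM in R (-1.62, edgeR adjusted p = 0.00225). Ifngr2 averaged 5.46 CPM in RA and 2.59 CPM in R (1.08, edgeR adjusted p = 0.0463). That call was lost with RLE factors (0.0507), a filter at 1 CPM (0.0545) or a replicate block (0.0775). It was also lost without any 1 library of the set but R replicate 3.

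The antiviral genes, a large group of interferon-induced effectors, also had opposite signs without and with the inhibitor. In ADO 23 of 28 rose and 1 fell, with a median log2 fold change of 0.51, and in RA 0 of 25 tested rose and 14 fell, with a median of -1.59. Of all genes, 25.5% were called higher and 24.6% lower in ADO, and 0.287% higher and 0.855% lower in RA. The count of 14 was 6 without R replicate 1, RA replicate 1 or RA replicate 3 and 7 without RA replicate 2, and the median stayed between -1.63 and -1.29 over 13 alternatives. Rsad2, which encodes viperin, averaged 0.622 CPM in RA and 9.01 CPM in R (-3.85, edgeR adjusted p = 0.000346), and Oasl1 0.414 CPM in RA and 4.18 CPM in R (-3.33, adjusted p = 0.00132). In contrast, the GBP and IRG GTPases, which attack vacuoles of intracellular microbes, rose in ADO in 17 of 17 cases with a median of 0.94. In RA 0 of 17 passed in edgeR, DESeq2 or limma-voom, where 147, 533 and 147 of 12873 genes did. At an unadjusted p under 0.05 there were 3, beside 1595 of all genes, and the list's median was -0.06. Gbp2 averaged 180 CPM in ADO and 72.3 CPM in DNT (1.32, edgeR adjusted p = 1.66e-33).

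The difference between the adenosine effects with and without the inhibitor was tested for the genes of these other lists, which did not choose the members. The lists themselves were chosen with earlier results of these data known, so they are not independent of this contrast. The genes named here are among those with the smallest p of their lists in it. The libraries compared with and without the inhibitor came from separate sets, so inhibitor and set cannot be told apart in this difference. Over all genes 4.05% of 14965 passed, 0.909% higher and 3.14% lower with the inhibitor. The effect was lower with the inhibitor in 22 of 28 antiviral genes, 15 of 17 GBP and IRG genes, 4 of 19 interferon signalling genes, 3 of 26 DNA sensing genes and 1 of 14 inflammasome genes, and higher in 0 of any of the 5 lists. Without R replicate 3, 8 DNA sensing, 3 interferon signalling and 2 inflammasome genes were called higher and 6, 8 and 1 lower. Of 15442 genes, 1633 were then called higher and 1418 lower. Without R replicate 2, 2 DNA sensing genes were higher and 3 inflammasome genes lower. Of 15390 genes, 744 were then called higher and 724 lower. With DESeq2, 3 DNA sensing genes were higher, where 539 of 14965 genes were called higher. The GBP and IRG count of 15 was 8 with library size only and 5 with a replicate block. It was 10 to 13 without any 1 library of DNT, ADO or RA, among them 10 without DNT replicate 2, ADO replicate 1 or ADO replicate 3. For Irf7 the difference was -2.83 (SE 0.15, edgeR adjusted p = 7.75e-07), for Rsad2 -4.66 (SE 0.2, adjusted p = 1.21e-07) and for Gbp2 -1.44 (SE 0.13, adjusted p = 3.74e-05). This test gave each gene 1 replicate spread for both sets, with a common coefficient of 14.2%, where the sets had 2.74% and 19.6%. For Irf7 and Rsad2 its SE lay below that of RA against R alone (0.19 and 0.27). The p-values and calls of the difference may therefore be too favourable. The 1 inflammasome gene was Pycard, the adaptor ASC, at -0.94 (SE 0.21, edgeR adjusted p = 0.0253), and its call was lost under 11 of the alternatives, with adjusted p up to 0.121.

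**Figure D4:**
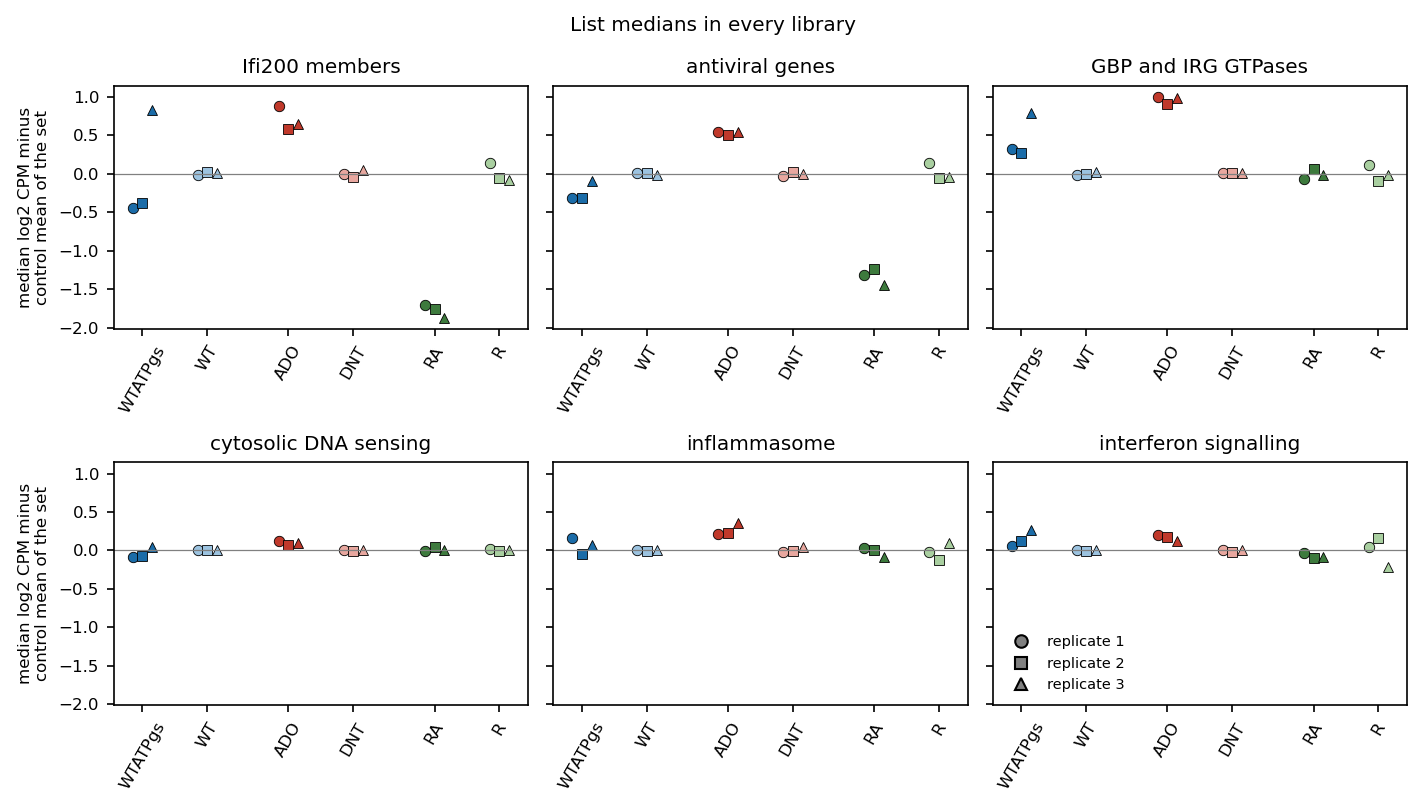
Median over the genes of each list of log2 CPM minus the mean of the 3 libraries without ligand of the same set, for every library; marker shapes are replicates. In RA the members and the antiviral genes lie at or below -1.24 and the GBP and IRG genes between -0.07 and 0.06, while in ADO all 3 lists lie above 0.5.

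In WTATPgs 7 of 17 GBP and IRG genes rose and 0 fell, and 3 of 27 antiviral genes rose and 7 fell, beside 17.7% of all genes called higher and 19.4% lower. A difference between the lists was not tested. In WTATPgs replicates 1, 2 and 3 the median over the GBP and IRG genes, relative to WT, was 0.32, 0.27 and 0.79 on the log2 scale, over the antiviral genes -0.32, -0.31 and -0.09, and over the members -0.44, -0.38 and 0.83. The rise in replicate 3 relative to the other replicates was thus in all 3 lists and was widest in the members. Without replicate 3, 11 GBP and IRG genes rose and 3 fell, and 4 antiviral genes rose and 15 fell. Of all genes, 26.9% were then called higher and 26.9% lower.

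Across all 18 libraries, the genes whose profile was most like the members' median profile were Usp18 (Pearson r = 0.979), Irf7 (0.976) and Rtp4 (0.974), an interferon-induced receptor chaperone. They were followed by Limd2 (0.962), Lgals3bp (0.954), which encodes a galectin-binding glycoprotein, Ubxn6 (0.95) and Lsp1 (0.945), a leukocyte actin-binding protein. These are the top 7 of 8451 genes with a mean of at least 5 CPM in each set. The correlations describe log2 levels centred on the libraries without ligand of each set, libraries of a group share their treatment, and no p is given. All 7 were higher in ADO and lower in RA. In ADO their log2 fold changes ran from 0.17 for Ubxn6 to 0.89 for Irf7. In RA they ran from -2.74 for Rtp4 to -0.37 for Ubxn6. These signs are those the members were chosen for, so ranking by likeness to the members selects them and nothing is read from them. With ATPgs the log2 fold changes ran from -0.14 for Limd2 and Irf7 to 0.25 for Lsp1. Of the other family genes, Ifi214 was at r = 0.93 (16th), Mndal at 0.85 (73rd) and Aim2 at 0.12 (3384th). Against the median of the other members, Ifi204 (0.98), Ifi203 (0.977) and Ifi208 (0.973) were most alike and Ifi207 (0.746), the member with the fewest reads, least.

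Markers of other cells were checked beside the adenosine comparisons. The 18 myeloid markers summed to between 357 and 382 CPM in ADO and between 344 and 363 CPM in DNT, most of it Ly6c2 and Ccr2, and to between 689 and 745 CPM in RA and between 752 and 1280 CPM in R. In ADO, 5 of 8 tested myeloid markers rose and 2 fell, beside 25.5% of all genes called higher and 24.6% lower. Cd14 had 1.89 to 2.84 CPM in ADO and 0.298 to 0.557 CPM in DNT, and Cd68 had 11.3 to 15.3 CPM in ADO and 7.72 to 8.86 CPM in DNT, while Ly6c2 had 232 to 252 CPM in ADO and 259 to 273 CPM in DNT, with no overlap in any of them. These 3 were chosen after their values were seen. Elane and Lyz1 were at 0 in all 4 groups, and Marco was at 0 in ADO, RA and R. The 11 B cell markers summed to between 29.8 and 31.6 CPM in ADO and between 35.2 and 39.5 CPM in DNT, and to between 52.4 and 63.7 CPM in RA and between 66.9 and 82.9 CPM in R, with Pax5 and Blnk among those at 0 in RA and R. In ADO, 1 of 4 tested B cell markers rose and 1 fell. H2-Ab1 averaged 9.61 CPM in ADO and 6.92 CPM in DNT, and Ighm 18.5 CPM in ADO and 27.8 CPM in DNT. The 10 dendritic cell markers summed to between 171 and 180 CPM in ADO and between 194 and 201 CPM in DNT, and to between 148 and 165 CPM in RA and between 171 and 185 CPM in R, and Siglech and Cd209a were at 0 in every group. In ADO, 3 of 6 tested dendritic cell markers rose and 2 fell. Batf3 averaged 14.3 CPM in ADO and 39.2 CPM in DNT, and Zbtb46 14.7 CPM in ADO and 22.2 CPM in DNT. Itgax averaged 15.4 CPM in ADO and 11.1 CPM in DNT. The 15 T cell markers summed to between 3950 and 4020 CPM in ADO and between 3760 and 3790 CPM in DNT, and to between 4060 and 4420 CPM in RA and between 4320 and 4740 CPM in R. In RA, 1 of 7 tested myeloid markers fell, beside 0.855% of all genes called lower. It was Fcgr3, an Fc receptor gene, at 5.81 CPM in RA and 17.8 CPM in R (log2 fold change -1.61, edgeR adjusted p = 0.00159). The part of these markers in the members' values was not tested.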

How the data were processed

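The authors deposited 3 tables of whole-number read counts per Ensembl gene, 1 for each set of 6 libraries. Reads were aligned with HISAT2 2.1.0 to GRCm38, per the submitters' processing notes, and total RNA was taken with Trizol, per the labels' protocols. The sources used here name no counting tool, annotation release or strandedness. GENCODE M21 gave symbols and coordinates for 99.7%, 99.6% and 99.6% of the IDs, and RefSeq (GRCm38.p6) the promoter sequences.

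The tool was edgeR 4.0.16 under R 4.3.3, with genes filtered by filterByExpr, TMM scaling and the robust quasi-likelihood test (two-sided, Benjamini-Hochberg adjustment over all genes tested, threshold 0.05), each ligand within its own table. The difference of the adenosine effects was a contrast of 4 group means over 12 libraries. Printed CPM are TMM scaled, and library-wise log2 values and likeness used a prior count of 0.5. The scripts were tested on simulated data. Alternatives were RLE factors, library size only, no filter, at least 1 CPM in at least 3 libraries, DESeq2 1.42.0, limma-voom (limma 3.58.1), a replicate block, leaving out each library and, added after the data were seen, exon lengths.

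The members and the gene lists were chosen with earlier results of these data known. Named were all members, the measured family genes, from each list the 3 genes with the smallest p (a selection of these is printed), and the 8 most alike genes, leaving out gene models and pseudogenes; some genes this rule names are not reported here. Usp18 stands in 2 lists, interferon signalling and antiviral, as does Bst2, antiviral and dendritic. No duplicated library was found among replicates. No library was left out of the main tests, and reads were not analysed here.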

Additional observations from a re-analysis of the deposited data

Results flagged for a closer look

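For 6 members every RA library lay below every R library while every ADO library lay above every DNT library, so the adenosine effect had opposite signs with and without the inhibitor. The log2 fold changes were -1.67 in RA against R and 0.36 in ADO against DNT for Ifi203, -2.56 and 0.65 for Ifi204, -1.7 and 0.5 for Ifi206, -2.18 and 0.81 for Ifi208, -1.13 and 0.96 for Ifi209, and -1.84 and 1.43 for Ifi213. These differences were not tested, because the members were picked for them. The sets were tabulated separately, so inhibitor and set cannot be told apart.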

How the results depend on the processing

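No alternative changed the sign of a fitted member in ADO against DNT or RA against R. Those signs chose the members, so nothing is read from this. With ATPgs the members' count was 0 except without WTATPgs replicate 3, so leaving out each library gave 0 to 6, and the median effect, 0.07, became -0.0031 with limma-voom, -0.0039 with the replicate block and -0.42 to 0.29 with libraries left out. Ifi209 became -0.0031 with limma-voom and -0.0039 with the replicate block, Ifi208 -0.15 and -0.14, and Ifi204 -0.07 and -0.07. Leaving out each library took Ifi206 from -0.99 to 0.07, Ifi213 from -0.38 to 0.53, Ifi209 from -0.33 to 0.25, Ifi208 from -0.71 to 0.29, Ifi207 from -0.04 to 0.31, Ifi204 from -0.57 to 0.33 and Ifi203 from -0.42 to 0.37 with ATPgs, and Aim2 from -0.38 to 0.07 in RA against R. The ATPgs calls, 5612 (2678 higher, 2934 lower), split into 3226 higher and 2331 lower with library size only and ran from 3885 to 8381 with libraries left out. The RA against R calls, 147, were 73 with library size only, 485 with no filter, 533 with DESeq2 and 36 (without RA replicate 1) to 1719 (without R replicate 3). Library size only also put the median of all genes in RA against R at 0.09, against -0.04. The calls of the difference, 606, were 240 with library size only, 1387 with DESeq2, 160 with the replicate block, and 280 (without DNT replicate 1) to 3051 (without R replicate 3). The cause of these shifts was not tested. Replicate numbers did not pair the libraries: same-numbered deviations correlated between -0.17 and 0.04. In the difference, the replicate block left 5 GBP and IRG genes and 17 antiviral genes called lower, against 15 and 22. In RA against R the wide spread of R, and for Ifi207 the few reads, limit what can be seen.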
